A study of Mus musculus with 50 samples.

Results

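Thapsigargin was set directly against interferon gamma (IFN-γ) after 1 h of treatment in developing mouse oligodendrocytes, the cells that go on to make myelin. The comparison used 10 of the 50 RNA-seq libraries of the series, chosen by their treatment and time labels, and 5 untreated libraries of the same hour served as the baseline. The 5 thapsigargin libraries (Tg, labelled 200 uM) comprised 3 Nrf2 -/- and 2 wild-type samples, as did the 5 IFN-γ libraries (200 U/ml) and the 5 untreated libraries. The unit of the Tg dose is given as labelled and could not be checked. All were labelled C57BL/6. Oligodendrocyte progenitors had been purified by immunopanning from the cortex of 6 day old pups, passaged 2 times and left to differentiate for 12 to 14 h before treatment, although the tissue label reads whole brain. The labels name no vehicle-treated group, so an effect of the drug's solvent and one of thapsigargin cannot be told apart. Nothing in the labels says whether replicates were separate cultures or animals, so a p-value here speaks only of how far these libraries scatter, some of which may be technical.

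Thapsigargin blocks the SERCA pumps that load calcium into the endoplasmic reticulum (ER). Calcium then leaves the ER, cytosolic calcium rises, and misfolded proteins start the unfolded protein response through its sensors PERK, IRE1 and ATF6. IFN-γ, a cytokine of T cells and natural killer cells, acts through a surface receptor and the kinases JAK1 and JAK2, and switches on IRF1 and other genes, many with a DNA element called GAS, that serve in antigen presentation and cell-autonomous defence. Both stimuli are known to stress cells of the oligodendrocyte lineage. NRF2, the product of Nfe2l2, is the main transcription factor of the antioxidant response, and the Nrf2 -/- cultures of all 3 treatments lacked it.

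The libraries held 33003667 to 37257674 counted reads each, and 15375 of 39056 genes had enough reads to be tested. Levels are given as counts scaled to the size of each library (CPM), in the order Nrf2 -/- 1, 2 and 3, then wild-type 1 and 2, and differences as the log2 of the fold ± its standard error. A gene was called where its adjusted p fell below 0.05. Nfe2l2 stood at 0.103 to 0.668 CPM in the 9 Nrf2 -/- libraries, against 7.77 to 11 CPM in the 6 wild-type libraries, as labelled. Markers of the lineage were present: Pdgfra, a receptor of progenitors, averaged 1108 ± 187 CPM with Tg, 1084 ± 144 CPM with IFN-γ and 1171 ± 162 CPM untreated (SD, n = 5 each). Mbp, a myelin protein, averaged 159 ± 25.4 CPM with Tg, 165 ± 23.2 CPM with IFN-γ and 171 ± 24.4 CPM untreated. The microglial genes Aif1, Tmem119, C1qa, C1qb, C1qc and Tyrobp had no read in any of the 15 libraries. Other microglia and macrophage markers were detected, with P2ry12 at 1.12 to 2.05 CPM and Cd68 at 2.77 to 8.71 CPM. Cx3cr1, Csf1r, Itgam and Ptprc had at most 0.173 CPM. Xist, transcribed from the inactive X chromosome of female cells, was high, at 441 to 695 CPM, in 6 of the 9 Nrf2 -/- libraries, replicates 1 and 3 of each treatment, and in 0 of the 6 wild-type libraries, with at most 8.66 CPM in the other 9. The Y-linked gene Ddx3y ran the other way, at no more than 1.48 CPM in those 6 libraries, against 112 to 116 CPM in Nrf2 -/- replicate 2 and 107 to 125 CPM in the wild-type libraries, so the Nrf2 -/- replicates did not all hold the same cells. No replicates agreed within counting noise.

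Of the 15375 genes tested, 5148 (33.5%) were called between Tg and IFN-γ, of which 2741 (17.8%) were higher with Tg and 2407 (15.7%) were lower. Most differences were small: the median size among called genes was 0.25 on the log2 scale, and 358 genes differed by more than 2-fold, 118 of them higher and 240 lower with Tg. At more than 8-fold, 8 genes were higher and 51 lower with Tg. Against the untreated libraries, Tg changed 4527 genes (29.4%), 2496 up (16.2%) and 2031 down (13.2%), and IFN-γ changed 744 (4.84%), 504 up (3.28%) and 240 down (1.56%). More than 2-fold changes were about as many with either stimulus, at 184 genes with Tg and 186 with IFN-γ, but 57 of those fell with Tg and 5 fell with IFN-γ. Both sets of values against untreated share the same 5 untreated libraries. Groups of 5 libraries did not overlap for 21.4% of genes between Tg and IFN-γ, for 17.9% between Tg and untreated and for 4.83% between IFN-γ and untreated.

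A gene was counted as specific to a stimulus where it was called against untreated with that stimulus, not called with the other, and called in the same sense between the stimuli. By this rule 3369 genes (21.9% of those tested) were specific to Tg, of which 1913 rose and 1456 fell. Specific to IFN-γ were 382 genes (2.48%), with 280 that rose and 102 that fell. Both stimuli changed 314 genes (2.04%): 151 rose with both, 49 fell with both, 68 rose with Tg and fell with IFN-γ, and 46 fell with Tg and rose with IFN-γ. Another 1198 genes were called between the stimuli but with neither against untreated, and 892 were called with a single stimulus against untreated but not between the stimuli, so they count as specific to neither. The median size of change against untreated was 0.24 among the Tg-specific genes and 0.59 among the IFN-γ-specific genes on the log2 scale. Of the Tg-specific genes 105 moved more than 2-fold, 76 up and 29 down, and of the IFN-γ-specific genes 131 did, 129 up and 2 down. The set of Tg-specific genes contracted to 1705 in comparisons of Nrf2 -/- libraries only and to 1655 in comparisons of wild-type libraries only. Each of these comparisons used fewer libraries, within a single fit of all 15. The genes moved by both numbered 137 in the Nrf2 -/- comparisons, 151 in the wild-type comparisons and 490 when genes of low count were kept.

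**Figure D1:**
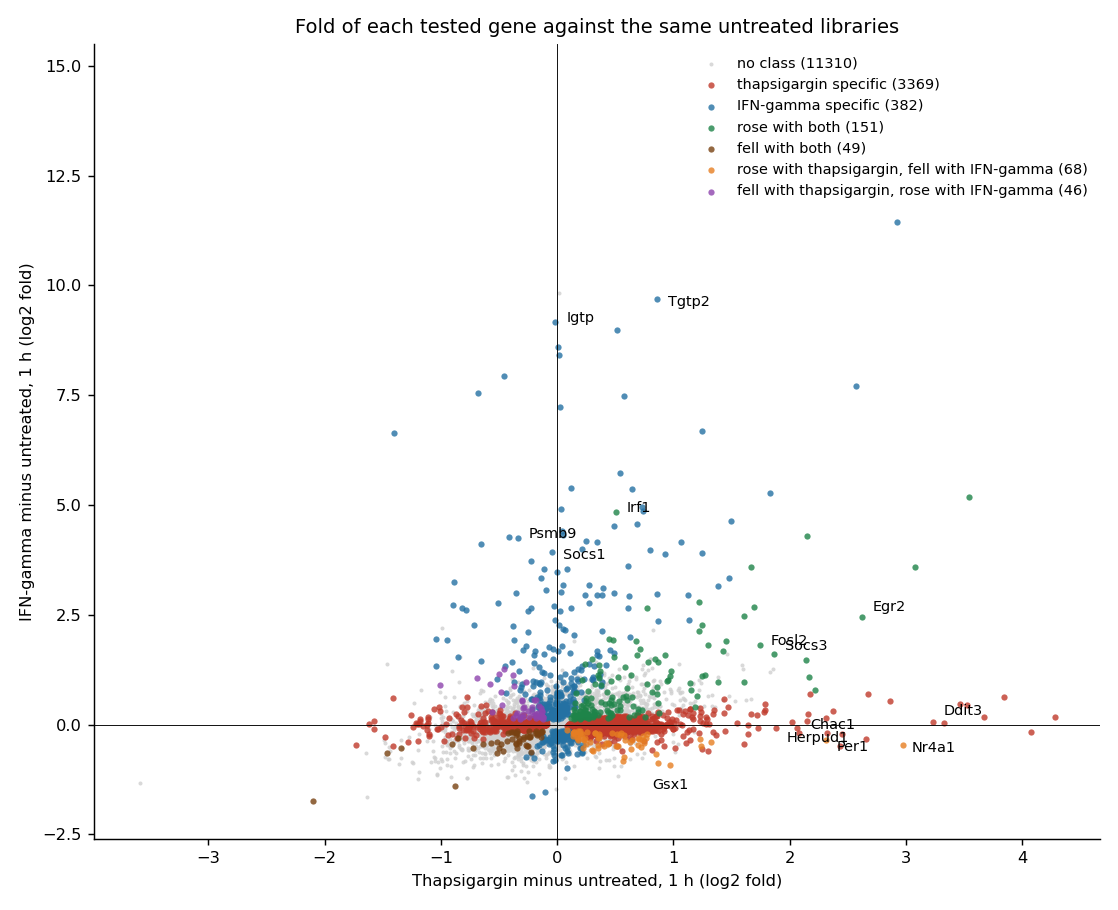
Each point is a tested gene, placed by its log2 fold against untreated at 1 h with thapsigargin (horizontal axis) and with IFN-γ (vertical axis), both against the same 5 untreated libraries. Colours mark the classes, with 3369 thapsigargin-specific genes spread along the horizontal axis and 382 IFN-γ-specific genes along the vertical one, where Igtp and Tgtp2 lie highest among the labelled genes.

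Immediate early transcription factors, which cells switch on within minutes of a signal from stored proteins, were mostly higher with Tg. Of 27 tested, 22 were higher with Tg than with IFN-γ and 1 was lower, with a median log2 difference of 1.42 against -0.01 over all tested genes. Of all tested genes 17.8% were higher and 15.7% lower with Tg. Against untreated, 25 of the 27 rose with Tg and none fell, whereas with IFN-γ 6 rose and 4 fell. The shares of all tested genes were 16.2% up and 13.2% down with Tg, and 3.28% up and 1.56% down with IFN-γ. Nr4a1, an orphan nuclear receptor induced by calcium and growth factor signals, had 77.7, 74.2, 83.6, 92.03 and 77.9 CPM in the Tg libraries. Nr4a1 stood at 7.47, 8.27, 8.14, 6.53 and 7.15 CPM in the IFN-γ libraries and at 9.07, 10.7, 9.99, 10.2 and 11.5 CPM in the untreated libraries. The 3 groups did not overlap, with Tg highest and IFN-γ lowest, and the log2 difference between Tg and IFN-γ was 3.43 ± 0.07, adjusted p = 1.71e-18, or 10.8-fold. Nr4a1 thus rose with Tg (2.98 ± 0.07, adjusted p = 1.61e-17) and fell with IFN-γ (-0.45 ± 0.08, adjusted p = 0.000541). Egr1, a zinc finger factor of the growth response, had 64.9, 57.4, 67.9, 98.4 and 60.6 CPM in the Tg libraries. Egr1 stood at 11.5, 9.92, 5.796, 12.1 and 4.06 CPM in the IFN-γ libraries and at 8.57, 5.08, 6.02, 8.44 and 3.398 CPM in the untreated libraries. Every Tg library lay above every other library, and the IFN-γ and untreated libraries overlapped; the difference was 2.99 ± 0.31, adjusted p = 1.77e-05 between Tg and IFN-γ, and that between IFN-γ and untreated was not called (0.48 ± 0.34, adjusted p = 0.662). Fos, a subunit of the AP-1 complex, averaged 391 ± 30.04 CPM with Tg, 94.2 ± 10.4 CPM with IFN-γ and 75.4 ± 11.5 CPM untreated (SD, n = 5 each), a log2 difference of 2.05 ± 0.11, adjusted p = 1.71e-08 between Tg and IFN-γ. Its AP-1 partner Junb was also higher with Tg (1.98 ± 0.17, adjusted p = 3.54e-06), as were Ier2 (1.91 ± 0.13, adjusted p = 9.5e-08) and the nuclear receptor Nr4a2 (1.86 ± 0.11, adjusted p = 1.99e-11). Jun, another AP-1 subunit, went the other way: it had 125, 126, 178, 168 and 121 CPM in the Tg libraries. Jun stood at 188, 166, 280.0, 235 and 269 CPM in the IFN-γ libraries and at 84.8, 82.9, 77.5, 76.4 and 78.4 CPM in the untreated libraries. Jun rose with both stimuli and further with IFN-γ, with -0.66 ± 0.16, adjusted p = 0.00723 between Tg and IFN-γ, although the Tg and IFN-γ libraries overlapped. Egr3, Egr4 and Fosb had the widest log2 differences of the list beside Nr4a1, at 3.49, 3.22 and 3.06, but at low levels, at 1.08 to 2.06, 1.26 to 2.47 and 1.79 to 3.55 CPM over the Tg libraries and below 0.6 CPM in the others.

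Targets of CREB and of calcineurin and NFAT, the factors through which calcium reaches the nucleus, included 10 of 17 that were higher with Tg and 1 that was lower, with a median of 0.16. Over all tested genes these shares were 17.8% and 15.7%. With Tg 10 of the 17 rose against untreated and none fell, and with IFN-γ 2 rose and 3 fell. Of all tested genes 16.2% rose and 13.2% fell with Tg, and 3.28% rose and 1.56% fell with IFN-γ. Per1, a clock gene with CREB sites, had 33.6, 28.004, 31.2, 41.2 and 37.2 CPM in the Tg libraries. Per1 stood at 4.997, 5.17, 5.06, 5.12 and 6.45 CPM in the IFN-γ libraries and at 6.17, 7.91, 5.79, 6.69 and 7.603 CPM in the untreated libraries. All Tg libraries were above the rest (2.67 ± 0.09, adjusted p = 4.68e-16), and IFN-γ lowered Per1 against untreated (-0.36 ± 0.09, adjusted p = 0.0251). Sik1, a kinase that holds CREB signalling in check, had 35.9, 34.2, 34.7, 35.6 and 44.4 CPM in the Tg libraries. Sik1 stood at 9.83, 9.896, 9.39, 12.96 and 13.2 CPM in the IFN-γ libraries and at 17.9, 19.1, 19.004, 21.02 and 24.5 CPM in the untreated libraries, with no overlap among the 3 groups; it rose with Tg (0.87 ± 0.06, adjusted p = 8.56e-10) and fell with IFN-γ (-0.88 ± 0.07, adjusted p = 2.42e-09). The repressor Nfil3 also rose with Tg (0.75 ± 0.07, adjusted p = 6.3e-08) and fell with IFN-γ (-0.42 ± 0.07, adjusted p = 0.000414). Gem, a small GTPase that restrains calcium channels, had the widest log2 difference of the list at 4.26 ± 0.41, adjusted p = 4.67e-08, from 1.49 ± 0.42 CPM with Tg and 0.0746 ± 0.0885 CPM with IFN-γ (SD, n = 5 each). Of 19 genes of calcium pumps, store-operated entry and release, by contrast, 1 was higher and 4 were lower with Tg, beside 17.8% and 15.7% of all genes. Orai1, the channel of store-operated calcium entry, was higher with Tg (0.32 ± 0.08, adjusted p = 0.00222), and Calm2 and Calm3 were lower (-0.26 for Calm2 and -0.20 for Calm3). Among 25 MAPK phosphatases and other growth factor feedback genes, 14 were higher and 3 lower with Tg, beside 17.8% and 15.7% of all genes. Dusp1, a phosphatase of MAP kinases, was higher (1.95 ± 0.14, adjusted p = 2.87e-09), and so was the anti-proliferative Btg2 (1.52 ± 0.10, adjusted p = 1.96e-08). Plk2, a stress-responsive polo-like kinase, was lower (-1.20 ± 0.08, adjusted p = 2.64e-08), with a rise against untreated of 0.30 ± 0.08, adjusted p = 0.0107 with Tg and of 1.501 ± 0.08, adjusted p = 6.27e-09 with IFN-γ.

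Genes of the unfolded protein response were higher with Tg. Of 27 ER chaperone, XBP1 and ER-associated degradation genes, 22 were higher with Tg and none was lower, with a median of 0.46. With Tg 21 of the 27 rose against untreated, and with IFN-γ none was called in either direction. Of all tested genes, 17.8% were higher and 15.7% lower between the stimuli. Against untreated, 16.2% of all tested genes rose with Tg and 4.84% were called with IFN-γ. Hspa5, which encodes the main ER chaperone BiP, had 1008, 1014, 1108, 1152 and 1198 CPM in the Tg libraries. Hspa5 stood at 566, 611, 557, 582 and 565 CPM in the IFN-γ libraries and at 539.9, 499.5, 519, 575 and 565 CPM in the untreated libraries. Each Tg library lay above every IFN-γ and untreated library, with 0.92 ± 0.04, adjusted p = 3.03e-13 between Tg and IFN-γ, and the IFN-γ libraries were not called against untreated (0.10 ± 0.04, adjusted p = 0.29). Herpud1, a component of ER-associated degradation, had 89.5, 86.6, 114, 125 and 129 CPM in the Tg libraries. Herpud1 stood at 27.8, 26.7, 26.5, 28.1 and 30.3 CPM in the IFN-γ libraries and at 31.05, 27.4, 28.7, 28.9 and 30.5 CPM in the untreated libraries, again with no overlap between Tg and the other groups (1.95 ± 0.08, adjusted p = 2.01e-11). Creld2, an ER-resident folding factor, was higher with Tg (1.15 ± 0.06, adjusted p = 4.01e-12), and Derl3, a degradation channel gene, was higher at a low level (2.99, with 1.41 to 2.09 CPM over the Tg libraries). The transcription factor Xbp1 averaged 160.4 ± 21.9 CPM with Tg, 56.6 ± 2.94 CPM with IFN-γ and 48.6 ± 5.12 CPM untreated (SD, n = 5 each), with 1.495 ± 0.09, adjusted p = 8.97e-09 between Tg and IFN-γ. The level of Xbp1 does not tell its splicing by IRE1, and none of the 4 annotated transcripts in the estimated counts is stated to be the spliced form. The longest, Xbp1-201, held 82.8 ± 3.40% of the estimated Xbp1 counts with Tg, 93.6 ± 1.32% with IFN-γ and 92.7 ± 1.33% untreated (SD, n = 5 each). The Tg libraries, at 77.6 to 86.4%, lay below the IFN-γ libraries, at 92.0 to 95.2%, and below the untreated ones, at 91.5 to 94.9%. An exact two-sided permutation test gave p = 0.00794 for Tg against IFN-γ and for Tg against untreated, the smallest value that 5 against 5 libraries allow, or 0.0136 after adjustment over 12 comparisons; for IFN-γ against untreated it gave p = 0.27, or 0.36 adjusted. This share was computed after the gene-level values had been seen.

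The PERK branch, which raises translation of ATF4 and through it CHOP, was covered by 26 ATF4, CHOP and integrated stress genes. Of these, 12 were higher and 4 lower with Tg, beside 17.8% and 15.7% of all genes, with a median of 0.16. Ddit3, which encodes the stress factor CHOP, had 39.1, 36.3, 47.7, 57.2 and 54.1 CPM in the Tg libraries. Ddit3 stood at 4.64, 5.71, 4.89, 5.73 and 4.63 CPM in the IFN-γ libraries and at 5.73, 5.82, 3.99, 4.62 and 4.52 CPM in the untreated libraries. No Tg library came near the others, and the IFN-γ and untreated libraries overlapped: Tg and IFN-γ differed by 3.18 ± 0.13, adjusted p = 1.9e-10, or 9.04-fold, and IFN-γ and untreated were not called (0.06 ± 0.15, adjusted p = 0.944). Atf4 itself averaged 492 ± 66.7 CPM with Tg, 203 ± 10.2 CPM with IFN-γ and 219 ± 17.5 CPM untreated (SD, n = 5 each; 1.27 ± 0.06, adjusted p = 5.62e-12). Chac1, a glutathione-degrading target of ATF4, was higher with Tg (2.26 ± 0.21, adjusted p = 2.9e-07), as was Stc2, a secreted glycoprotein (0.96 ± 0.12, adjusted p = 1.25e-06). Also higher were Atf3, counted here with the immediate early genes (2.34 ± 0.24, adjusted p = 3.37e-07), and Ppp1r15a, the GADD34 subunit that reverses the PERK signal (0.53 ± 0.07, adjusted p = 2.4e-06). Trib3, a pseudokinase induced by CHOP, was lower with Tg (-0.72 ± 0.19, adjusted p = 0.00429); against untreated it was not called with Tg (0.36 ± 0.20, adjusted p = 0.208) and rose with IFN-γ (1.08 ± 0.19, adjusted p = 0.000657). Asns, the asparagine synthetase gene and a standard ATF4 target, was not called between the stimuli (-0.07 ± 0.04, adjusted p = 0.188). For Ddit3, Herpud1, Chac1, Xbp1 and Atf4 all 3 Nrf2 -/- Tg libraries lay below both wild-type Tg libraries, but no genotype difference of the response to Tg was called for any of the 5 genes, with an adjusted p of 0.647 for Ddit3 and 0.732 for Herpud1. Hspa5 and Creld2 had the same order and were not called for such a difference either. These genes were picked with their values known. How many of all tested genes had this order was not counted, so it is no result about stress genes.

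The promoters of Ddit3 and Herpud1 are shown to place the response beside the elements of the stress factors, taken from RefSeq on GRCm38.p6 as 250 bases before and 50 after the annotated start. Ddit3 was named by a rule of largest difference, and Herpud1 was added after the values were seen. They span chr10:127290543-127290842 and chr8:94386179-94386478, both on the plus strand. Capitals mark matches to 6 motifs searched on both strands: the GAS element TTCNNNGAA, the core of the interferon-stimulated response element (ISRE), which is GAAA and a second GAAA 2 bases on, the cyclic AMP element TGACGTCA, the C/EBP-ATF element TTGCATCA, the ER stress element (ERSE) bound by ATF6, which is CCAAT and CCACG 9 bases apart, and the serum response CArG box.
Ddit3: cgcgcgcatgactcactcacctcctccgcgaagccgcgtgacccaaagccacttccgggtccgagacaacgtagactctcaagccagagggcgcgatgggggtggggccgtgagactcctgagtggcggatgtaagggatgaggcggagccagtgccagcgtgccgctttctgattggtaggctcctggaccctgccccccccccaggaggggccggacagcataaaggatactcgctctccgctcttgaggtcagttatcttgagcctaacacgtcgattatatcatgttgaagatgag
Herpud1: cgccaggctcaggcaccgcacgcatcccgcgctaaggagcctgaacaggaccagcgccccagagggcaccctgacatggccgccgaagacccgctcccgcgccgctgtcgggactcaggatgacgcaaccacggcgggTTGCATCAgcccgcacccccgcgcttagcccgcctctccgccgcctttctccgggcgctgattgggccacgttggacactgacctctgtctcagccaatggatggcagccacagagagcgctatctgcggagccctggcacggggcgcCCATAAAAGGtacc
Herpud1 held a C/EBP-ATF element 112 to 105 bases before its start and a CArG box 37 to 46 bases after it, and Ddit3 held none of the 6 in this window. Variants of the 6 motifs, such as other spacings of CCAAT and CCACG, were not searched. A window without a match may thus still hold an ER stress element of another form. Among the genes specific to Tg that rose at least 2-fold, 42 of 76 had a promoter in the table, and 4 of those 42 (9.52%) held the C/EBP-ATF element, 5 (11.9%) the ERSE and 3 (7.14%) the cyclic AMP element. Of the 10964 tested genes with a promoter in the table, 0.52% held the C/EBP-ATF element, 0.164% the ERSE and 3.36% the cyclic AMP element. These shares are descriptions, and a match is not evidence of a bound site.

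**Figure D2:**
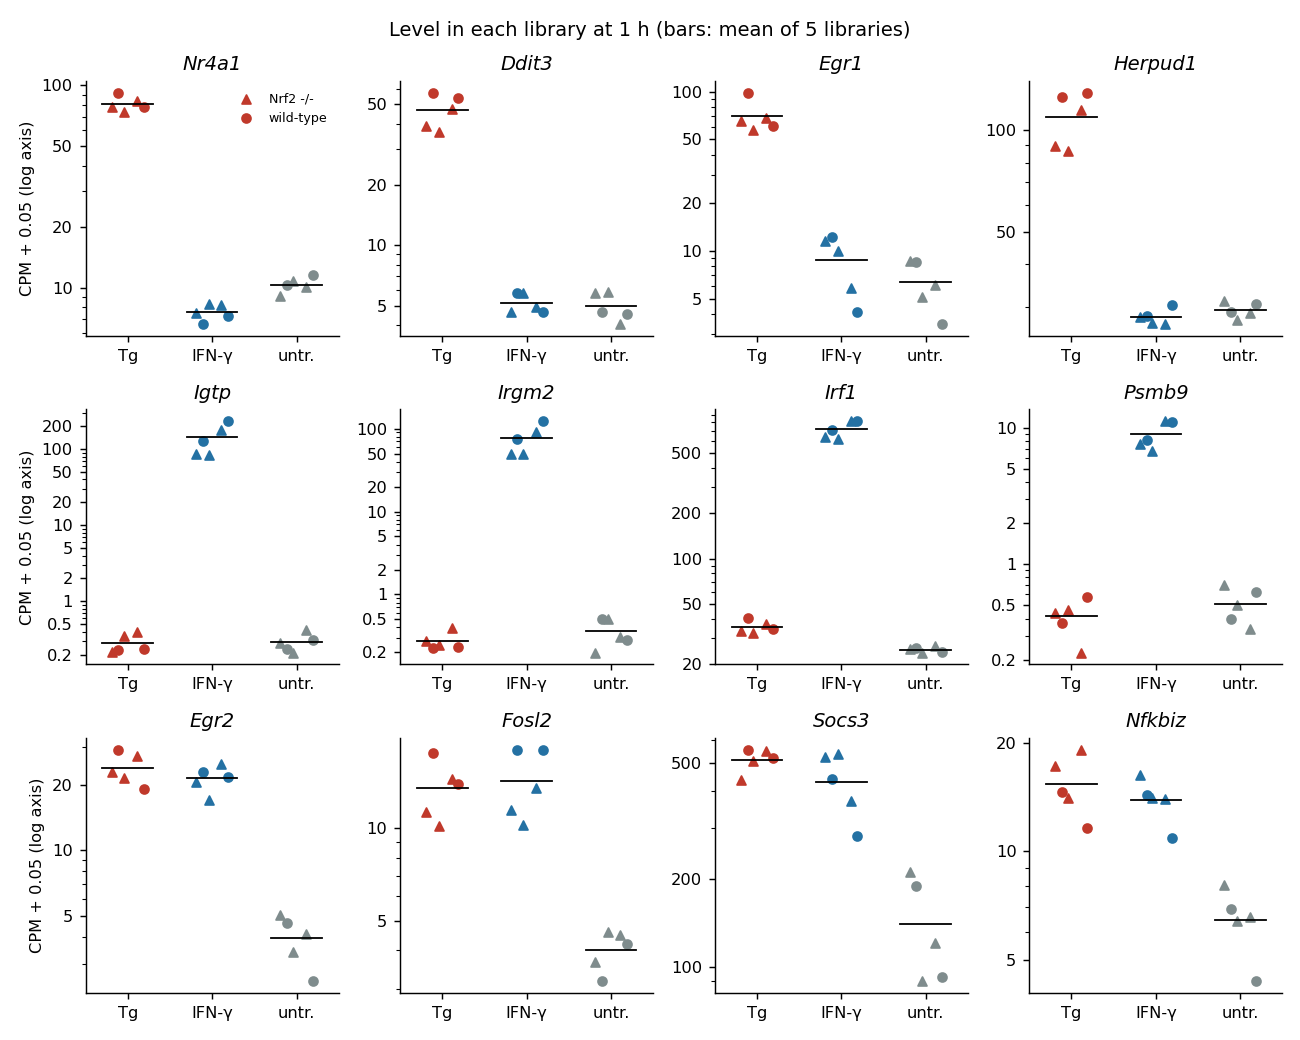
Level of 12 genes in every library at 1 h, as CPM + 0.05 on a log axis, for Tg, IFN-γ and untreated (untr.) from left to right; circles are wild-type and triangles Nrf2 -/- libraries, and bars are the mean of 5 libraries. Nr4a1, Ddit3, Egr1 and Herpud1 stand high with Tg alone, Igtp, Irgm2, Irf1 and Psmb9 with IFN-γ, and Egr2, Fosl2, Socs3 and Nfkbiz with both.

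Genes lower with Tg were led by the interferon-inducible GTPases, which attack the vacuoles of intracellular pathogens. All but 1 of the 14 tested were lower with Tg than with IFN-γ, with a median log2 difference of -4.93; 13 rose with IFN-γ against untreated, none was called with Tg, and Gbp11 was called in no comparison. The list holds 18 genes in all, and the other 4 had too few reads to be tested. Of all tested genes, 15.7% were lower with Tg than with IFN-γ, and 3.28% rose with IFN-γ against untreated. Igtp, a GTPase of the IRGM group, had 0.167, 0.303, 0.348, 0.176 and 0.185 CPM in the Tg libraries. Igtp stood at 86.9, 83.02, 181, 129 and 234 CPM in the IFN-γ libraries and at 0.236, 0.1603, 0.371, 0.188 and 0.259 CPM in the untreated libraries. Every IFN-γ library lay far above the other 10, and the Tg and untreated libraries overlapped. Tg and IFN-γ differed by -9.19 ± 0.42, adjusted p = 1.52e-08 in Igtp. Irgm2, of the same group, averaged 0.225 ± 0.0712 CPM with Tg, 77.7 ± 30.8 CPM with IFN-γ and 0.309 ± 0.1395 CPM untreated (SD, n = 5 each). Iigp1, an effector GTPase, averaged 0.0588 ± 0.0313 CPM with Tg, 18.8 ± 8.05 CPM with IFN-γ and 0.0968 ± 0.0692 CPM untreated. Tgtp2 had 4 reads in all over the Tg libraries, 2124 over the IFN-γ libraries and 2 over the untreated libraries, a ratio of IFN-γ to untreated of 1067 with a 95% counting interval of 295 to 8813; it has a close copy, Tgtp1, with which reads may be shared. Gbp2, a guanylate-binding protein gene of a family with similar copies, had 1.33, 0.9301, 9.92, 5.23 and 19.7 CPM in the IFN-γ libraries and at most 0.2 CPM elsewhere. Gbp3 averaged 6.17 ± 0.652 CPM with Tg, 97.7 ± 29.5 CPM with IFN-γ and 7.31 ± 1.16 CPM untreated (SD, n = 5 each), with -3.96 ± 0.20, adjusted p = 2.35e-08 between Tg and IFN-γ.

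The IRF factors and other regulators induced by interferon were also lower with Tg: 9 of 10 tested were lower with Tg, at a median of -1.99. The share of all tested genes that were lower was 15.7%. Irf1, a factor that relays the interferon response, had 33.5, 32.1, 37.2, 40.4 and 34.3 CPM in the Tg libraries. Irf1 stood at 639.9, 623, 817, 718 and 813 CPM in the IFN-γ libraries and at 25.3, 23.8, 26.3, 25.6 and 24.05 CPM in the untreated libraries. The 3 groups did not overlap, and Irf1 differed by -4.35 ± 0.09, adjusted p = 1.3e-14 between Tg and IFN-γ. Irf1 was also called with Tg against untreated, at 0.50 ± 0.08, adjusted p = 0.000246, beside 4.85 ± 0.09, adjusted p = 1.06e-14 with IFN-γ, so it counts among the genes that rose with both. Irf8, better known as a factor of myeloid cells, had 3.91, 3.44, 3.83, 4.05 and 3.05 CPM in the Tg libraries. Irf8 stood at 112, 103, 164, 125 and 204 CPM in the IFN-γ libraries and at 3.397, 3.61, 2.71, 3.31 and 3.89 CPM in the untreated libraries, with no overlap between IFN-γ and the rest (-5.26 ± 0.20, adjusted p = 2.08e-09). The summed level of the microglia and macrophage markers was 4.11 to 6.05 CPM with Tg, 6.90 to 9.36 CPM with IFN-γ and 8.22 to 10.8 CPM untreated, most of it from Cd68, and its part in the Irf8 result was not tested. Nlrc5, the activator of MHC class I genes, was lower with Tg (-3.49 ± 0.31, adjusted p = 4.34e-06), and so was Irf9, a factor of interferon signalling (-2.54 ± 0.07, adjusted p = 4.68e-16). Cebpd was not called between the stimuli (-0.16 ± 0.21, adjusted p = 0.607) and rose with both, by 0.77 with Tg and 0.93 with IFN-γ.

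Of the receptor, signalling and feedback genes of the pathway, 8 of 13 were lower with Tg and none was higher, with a median of -0.17. The shares of all tested genes were 15.7% lower and 17.8% higher. The receptor genes Ifngr1 and Ifngr2 were not called in any comparison, with adjusted p-values of 0.306 and 0.721 between the stimuli. Socs1, the main inhibitor of JAK kinases in this pathway, averaged 0.312 ± 0.152 CPM with Tg, 5.19 ± 2.298 CPM with IFN-γ and 0.321 ± 0.176 CPM untreated (SD, n = 5 each; -3.98 ± 0.38, adjusted p = 1.64e-06). The related inhibitors Cish and Socs2 rose with both stimuli and more with IFN-γ, with log2 changes against untreated of 0.45 with Tg and 1.96 with IFN-γ for Cish, and 0.71 with Tg and 1.73 with IFN-γ for Socs2. Socs3 behaved differently and is described with the genes that rose with both. Usp18, a brake on interferon receptors, was lower with Tg at a low level (-1.74 ± 0.43, adjusted p = 0.00314).

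In MHC class I presentation, 12 of 17 genes were lower with Tg, beside 15.7% of all genes, with a median of -0.50. The largest differences lay in the machinery that makes and carries peptides: Psmb9, a subunit of the immunoproteasome (-4.59 ± 0.22, adjusted p = 2.78e-12), and Psmb8, another subunit (-3.46 ± 0.45, adjusted p = 4.26e-05). The peptide transporter genes followed, with Tap1 at -2.99 ± 0.17, adjusted p = 3.88e-08 and Tap2 at -1.74 ± 0.29, adjusted p = 0.000452. Tap1 averaged 6.81 ± 0.696 CPM with Tg, 54.6 ± 14.2 CPM with IFN-γ and 6.66 ± 0.556 CPM untreated (SD, n = 5 each). B2m, the light chain of class I molecules, was lower with Tg as well (-0.64 ± 0.07, adjusted p = 1.47e-07). The classical heavy chain genes differed little at this hour: H2-K1 was not called (-0.001 ± 0.07, adjusted p = 0.996) and H2-D1 was lower by a small amount (-0.17 ± 0.05, adjusted p = 0.0148), in a family whose similar sequences may share reads. Among 18 antiviral interferon-stimulated genes, 12 were lower and 1 higher with Tg, beside 15.7% and 17.8% of all genes, at a median of -0.79. Parp14 differed by -3.93 ± 0.40, adjusted p = 3.54e-06, its family member Parp9 by -2.996 ± 0.20, adjusted p = 2.8e-10 and the ubiquitin ligase gene Dtx3l by -3.65 ± 0.32, adjusted p = 1.22e-06. Serpina3f, a protease inhibitor gene of a family with close copies, averaged 0.169 ± 0.103 CPM with Tg, 20.7 ± 5.88 CPM with IFN-γ and 0.111 ± 0.0635 CPM untreated (SD, n = 5 each; -6.90 ± 0.23, adjusted p = 1.36e-13).

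Within the IFN-γ group the libraries kept a common order. For all 12 genes named as lowest with Tg in the direct comparison, Nrf2 -/- libraries 1 and 2 held the lowest 2 places, and wild-type library 2 held the highest place for 10 of the 12 genes and Nrf2 -/- library 3 for the other 2. Both wild-type libraries lay above all 3 Nrf2 -/- libraries for Serpina3f and Socs1 but not for the other 10 genes, and no gene was called for a genotype difference between Tg and IFN-γ. The Tg libraries had no order so uniform: for the 12 genes named as highest with Tg, wild-type library 1 held the highest place for 6 and Nrf2 -/- library 3 for 4.

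Promoters of the IFN-γ genes with the largest differences are shown for the position of the GAS and ISRE elements, with Irf1 added after the values were seen. On GRCm38.p6, the promoter of Igtp spans chr11:58199306-58199605 on the plus strand, that of Tgtp2 chr11:49064163-49064462 on the minus strand, and that of Irf1 chr11:53769764-53770063 on the plus strand, 1 of 2 starts listed for Irf1. Capitals again mark matches to the 6 motifs.
Igtp: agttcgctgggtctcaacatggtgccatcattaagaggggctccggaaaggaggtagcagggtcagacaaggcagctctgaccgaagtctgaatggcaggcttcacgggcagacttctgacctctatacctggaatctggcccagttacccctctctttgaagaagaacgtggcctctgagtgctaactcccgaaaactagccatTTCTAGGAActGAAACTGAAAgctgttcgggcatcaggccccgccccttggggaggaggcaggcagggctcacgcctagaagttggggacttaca
Tgtp2: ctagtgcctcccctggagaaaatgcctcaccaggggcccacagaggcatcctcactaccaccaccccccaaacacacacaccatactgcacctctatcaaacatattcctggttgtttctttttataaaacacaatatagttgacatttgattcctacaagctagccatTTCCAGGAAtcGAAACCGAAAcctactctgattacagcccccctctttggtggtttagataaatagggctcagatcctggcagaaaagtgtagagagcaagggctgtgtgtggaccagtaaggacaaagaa
Irf1: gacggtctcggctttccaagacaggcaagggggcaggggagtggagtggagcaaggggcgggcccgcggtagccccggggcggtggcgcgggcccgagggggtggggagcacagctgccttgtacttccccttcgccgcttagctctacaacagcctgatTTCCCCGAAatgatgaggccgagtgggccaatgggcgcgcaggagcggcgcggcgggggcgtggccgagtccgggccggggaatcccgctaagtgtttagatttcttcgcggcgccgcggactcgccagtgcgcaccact
Igtp held a GAS match at 45 to 37 bases and an ISRE core at 34 to 25 bases before its start. Tgtp2 held the same pair in the same order, with a GAS match at 81 to 73 bases and an ISRE core at 70 to 61 bases before its start. Irf1 held a GAS match alone, at 90 to 82 bases before its start. Among the genes specific to IFN-γ that rose at least 2-fold, 88 of 129 had a promoter in the table, and 20 of the 88 (22.7%) held a GAS match and 23 (26.1%) an ISRE core. Of the 119 genes with a promoter that rose with both stimuli, 21 (17.6%) held a GAS match and 5 (4.2%) an ISRE core. Of the 1479 such genes that were specific to Tg and rose, 107 (7.23%) held a GAS match and 33 (2.23%) an ISRE core. Over the 10964 tested genes with a promoter in the table the shares were 6.79% for GAS and 2.76% for the ISRE core. No test was made of these shares.

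**Figure D3:**
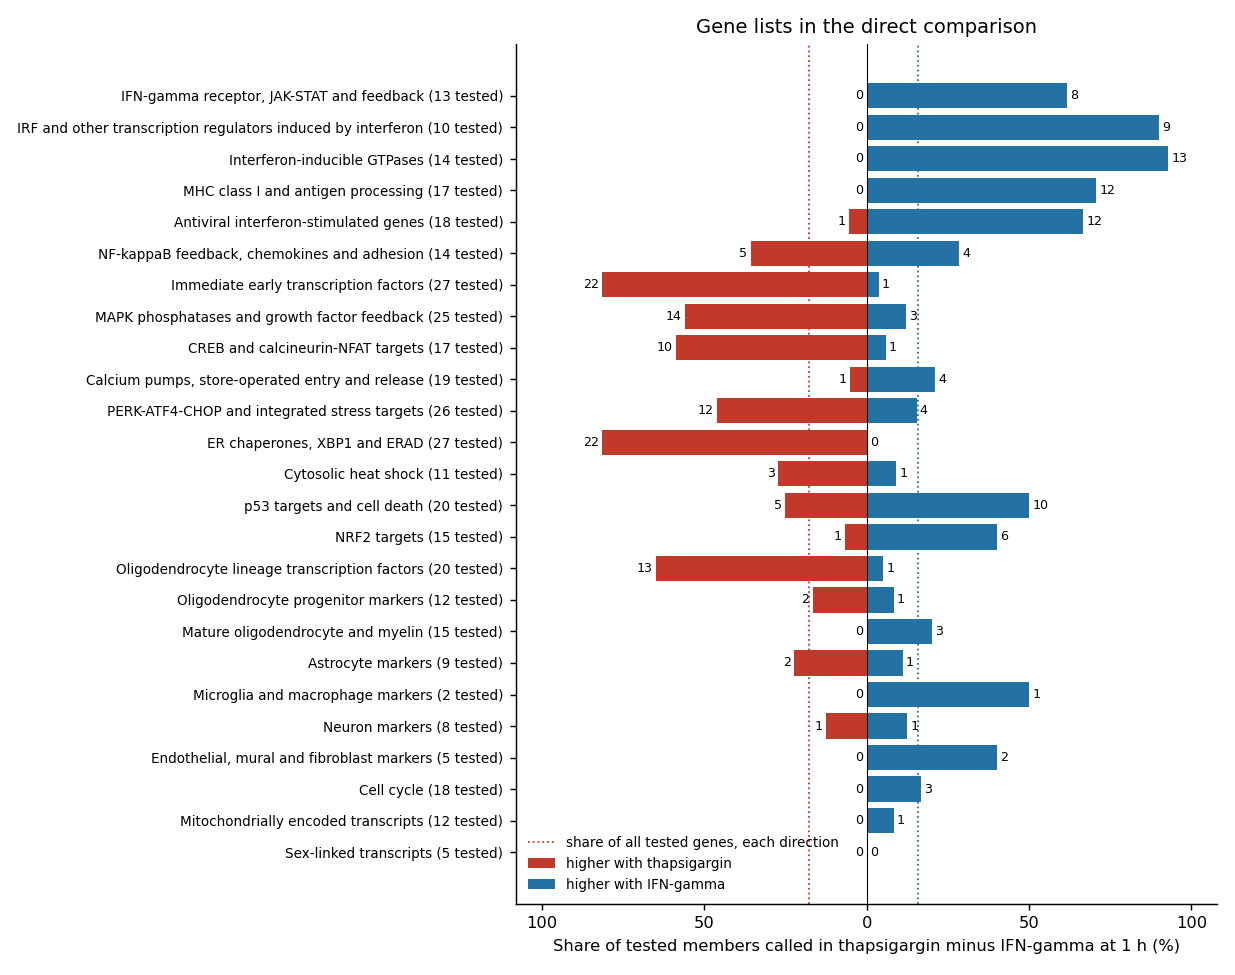
Share of the tested members of each gene list that were called between thapsigargin and IFN-γ at 1 h, with members higher with thapsigargin to the left and members higher with IFN-γ to the right; the number at each bar is the count of genes, and dotted lines mark the 17.8% and 15.7% of all tested genes called in each direction. The 22 immediate early and 22 ER chaperone genes reach furthest left, and the 13 GTPase and 9 IRF genes furthest right.

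NF-κB feedback genes, chemokines and adhesion genes split by member, with 5 of 14 higher and 4 lower with Tg and a median of 0.10. Over all tested genes, 17.8% were higher and 15.7% lower with Tg. The NF-κB subunits Rel (0.92 ± 0.15, adjusted p = 0.000109) and Relb (0.91 ± 0.09, adjusted p = 6.26e-08) and the feedback inhibitor Tnfaip3 (0.97 ± 0.13, adjusted p = 3.51e-06) were higher with Tg. Icam1, an adhesion receptor for leukocytes, was lower with Tg (-4.38 ± 0.41, adjusted p = 4.51e-08), with 0 to 0.206 CPM over the Tg libraries, 1.52 to 2.77 CPM over the IFN-γ libraries and 0.0288 to 0.257 CPM over the untreated libraries. Cd274, which encodes the T cell inhibitor PD-L1, had 0.614, 0.908, 0.6095, 0.793 and 0.862 CPM in the Tg libraries. Cd274 stood at 5.86, 6.49, 17.1, 12.2 and 23.1 CPM in the IFN-γ libraries and at 0.739, 0.321, 0.485, 0.779 and 0.403 CPM in the untreated libraries; the IFN-γ libraries lay above all others (-4.05 ± 0.40, adjusted p = 7.63e-06). The chemokine gene Cxcl1 was lower with Tg at a very low level (-2.66 ± 0.55, adjusted p = 0.000647). The list holds 24 genes, and those not tested had too few reads.

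Genes that rose with both stimuli numbered 151, and for 81 of them Tg and IFN-γ were not called against each other, while 23 were higher with Tg and 47 higher with IFN-γ. Egr2, a zinc finger factor of the immediate early class that is known for myelination in Schwann cells, had 22.9, 21.5, 27.2, 29.01 and 19.1 CPM in the Tg libraries. Egr2 stood at 20.5, 17.1, 24.96, 22.9 and 21.6 CPM in the IFN-γ libraries and at 4.99, 3.37, 4.08, 4.596 and 2.45 CPM in the untreated libraries. The treated groups overlapped each other and lay above every untreated library, with a rise of 2.62 ± 0.18, adjusted p = 2.46e-07 with Tg and 2.46 ± 0.18, adjusted p = 1.12e-06 with IFN-γ, and 0.16 ± 0.16, adjusted p = 0.471 between them. Its promoter, chr10:67535249-67535548 on the plus strand of GRCm38.p6, which is 1 of 5 starts listed for the gene, held none of the 6 motifs in this window and is printed for comparison with those above. The promoters of Fosl2 and of Egr4, searched in the same way, each held an ISRE core on the reverse strand.
Egr2: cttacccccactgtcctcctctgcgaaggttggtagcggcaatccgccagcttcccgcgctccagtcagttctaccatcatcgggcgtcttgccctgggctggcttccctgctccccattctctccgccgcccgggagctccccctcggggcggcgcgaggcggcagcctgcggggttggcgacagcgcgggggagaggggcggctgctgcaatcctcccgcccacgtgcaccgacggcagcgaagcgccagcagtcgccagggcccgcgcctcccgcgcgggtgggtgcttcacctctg
Fosl2, an AP-1 subunit, had 11.3, 10.2, 14.4, 17.5 and 13.9 CPM in the Tg libraries. Fosl2 stood at 11.4, 10.2, 13.5, 18.002 and 17.97 CPM in the IFN-γ libraries and at 3.604, 4.54, 4.42, 3.12 and 4.15 CPM in the untreated libraries; the treated groups overlapped and lay above the untreated one, and the direct difference was not called (-0.07 ± 0.14, adjusted p = 0.753). Socs3, the inhibitor best known for cytokines that act through STAT3, had 436, 508, 550.4, 556 and 519 CPM in the Tg libraries. Socs3 stood at 525, 539, 369.7, 442 and 281 CPM in the IFN-γ libraries and at 212, 89.6, 121, 189 and 92.6 CPM in the untreated libraries. Its treated libraries all exceeded the untreated ones, with 1.87 ± 0.27, adjusted p = 0.000331 for Tg, 1.61 ± 0.27, adjusted p = 0.00359 for IFN-γ and 0.26 ± 0.26, adjusted p = 0.497 between them. Maff, a small MAF factor, and Nfkbiz, an atypical inhibitor of NF-κB, followed the same pattern, at 1.27 with Tg and 1.13 with IFN-γ for Maff, and 1.25 with Tg and 1.11 with IFN-γ for Nfkbiz. A direct difference that missed the threshold does not show that the stimuli raised these genes equally.

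Other genes rose with both but to different extents. Gadd45g, a stress and growth arrest gene, rose more with Tg, by 2.16 against 1.08 with IFN-γ (1.08 ± 0.19, adjusted p = 0.000809 between them). So did Adamts1, a secreted protease (0.65 ± 0.12, adjusted p = 0.0013 between Tg and IFN-γ). Arid5a, which stabilises cytokine transcripts, rose more with IFN-γ: it had 56.97, 56.3, 66.6, 75.5 and 55.5 CPM in the Tg libraries. Arid5a stood at 96.3, 97.9, 107, 97.8 and 93.5 CPM in the IFN-γ libraries and at 32.9, 31.95, 34.04, 33.5 and 31.2 CPM in the untreated libraries, with no overlap among the 3 groups and -0.66 ± 0.07, adjusted p = 1.12e-06 between Tg and IFN-γ. Txnip, an inhibitor of thioredoxin, rose with both, at 1.45 with Tg and 1.90 with IFN-γ, and missed the threshold between them (-0.45 ± 0.17, adjusted p = 0.057). Filip1l also rose with both, at 1.14 with Tg and 0.94 with IFN-γ.

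Genes that fell with both numbered 49, for 34 of which the stimuli were not called against each other; 11 were lower with Tg and 4 lower with IFN-γ. Mir17hg, the host transcript of the miR-17-92 cluster, had 33.2, 25.9, 23.9, 26.3 and 27.9 CPM in the Tg libraries. Mir17hg stood at 47.6, 41.96, 49.8, 48.6 and 53.7 CPM in the IFN-γ libraries and at 77.1, 78.8, 78.4, 72.8 and 72.6 CPM in the untreated libraries. The 3 groups did not overlap, and the fall was larger with Tg (-1.47 ± 0.08, adjusted p = 2.64e-10) than with IFN-γ (-0.65 ± 0.07, adjusted p = 9.18e-06; -0.82 ± 0.08, adjusted p = 2.44e-07 between them). Mex3b, an RNA-binding protein gene, averaged 35.01 ± 2.75 CPM with Tg, 61.5 ± 7.81 CPM with IFN-γ and 88.8 ± 7.85 CPM untreated (SD, n = 5 each), with -0.81 ± 0.08, adjusted p = 1.25e-06 between Tg and IFN-γ. Mir124a-1hg, the host transcript of a miR-124 gene, also fell more with Tg (-0.47 ± 0.09, adjusted p = 0.000236). Gas1, a growth arrest gene, and Lama5, a laminin chain gene, fell with both and were not called between them, at 0.385 and 0.489 as adjusted p. Rasgrf2 fell with both as well, but its call with IFN-γ (-0.41 ± 0.11, adjusted p = 0.0203) was lost in 3 of the 15 fits that each left out a library, where its adjusted p reached 0.0885.

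Opposite changes were found for 114 genes, 68 of which rose with Tg and fell with IFN-γ. Gsx1, a homeobox gene of neural progenitors, had 14.8, 11.5, 18.5, 16.9 and 17.7 CPM in the Tg libraries. Gsx1 stood at 5.02, 4.24, 2.88, 5.17 and 3.93 CPM in the IFN-γ libraries and at 7.12, 9.405, 6.73, 8.28 and 8.899 CPM in the untreated libraries. No library of any group overlapped another group, and Gsx1 rose with Tg (0.97 ± 0.14, adjusted p = 5.91e-05) and fell with IFN-γ (-0.92 ± 0.15, adjusted p = 0.000881). Myc, the growth regulator, had 139, 126, 132, 166 and 136 CPM in the Tg libraries. Myc stood at 61.4, 54.4, 59.2, 68.1 and 61.97 CPM in the IFN-γ libraries and at 77.3, 99.04, 83.5, 94.8 and 96.4 CPM in the untreated libraries, likewise without overlap, with 0.63 ± 0.06, adjusted p = 5.3e-07 for Tg and -0.56 ± 0.06, adjusted p = 6.44e-06 for IFN-γ. Dll1, a Notch ligand, averaged 271 ± 15.3 CPM with Tg, 134 ± 18.7 CPM with IFN-γ and 189 ± 14.4 CPM untreated (SD, n = 5 each; 1.02 ± 0.09, adjusted p = 6.87e-07 between Tg and IFN-γ). Chst3, which sulphates chondroitin (1.24 ± 0.06, adjusted p = 1.48e-13), Dmrta1 (1.15 ± 0.08, adjusted p = 2.18e-10) and Pnpla3, a lipase family gene (0.98 ± 0.08, adjusted p = 6.31e-09), followed the same pattern. The 46 genes in the other direction, which fell with Tg and rose with IFN-γ, had a median log2 change of -0.25 with Tg and 0.29 with IFN-γ. With Tg, 1 of them fell more than 2-fold.

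**Figure D4:**
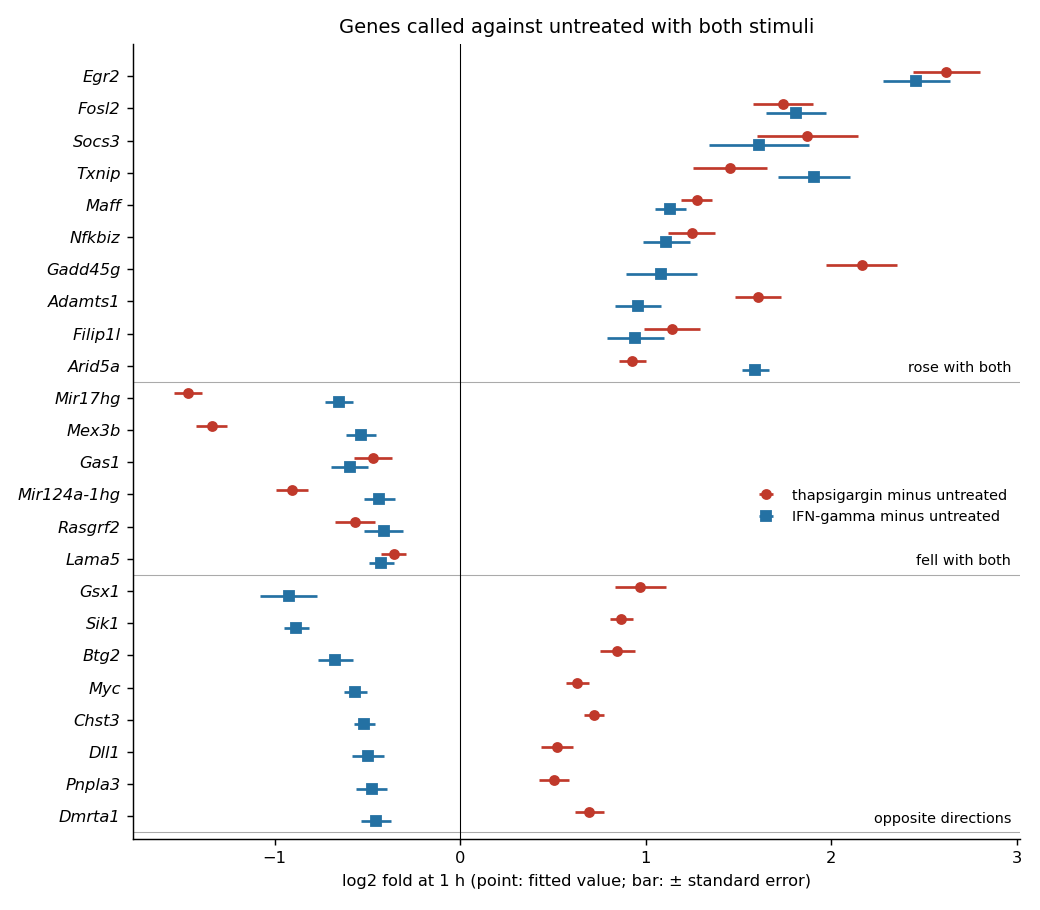
Log2 fold against untreated at 1 h of 24 genes called with both stimuli, with red circles for thapsigargin and blue squares for IFN-γ and bars of ± the standard error (n = 5 libraries per group). Egr2, Fosl2, Socs3, Maff and Nfkbiz show nearly coincident points, and Gsx1, Sik1, Btg2 and Myc show points on opposite sides of 0.

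Transcription factors of the oligodendrocyte lineage were mostly higher with Tg than with IFN-γ, with 13 of 20 higher, 1 lower and a median of 0.44. Of all tested genes 17.8% were higher and 15.7% lower. Against untreated, 6 of the 20 rose with Tg and none fell, and with IFN-γ 1 rose and 5 fell. The shares of all tested genes were 16.2% up and 13.2% down with Tg, and 3.28% up and 1.56% down with IFN-γ. Sox10, the factor that defines the lineage, rose with Tg (0.33 ± 0.04, adjusted p = 4.41e-06) and fell with IFN-γ (-0.18 ± 0.04, adjusted p = 0.0101). Sox9, a factor of glial progenitors and astrocytes, had 20.9, 19.97, 25.3, 24.5 and 16.5 CPM in the Tg libraries. Sox9 stood at 10.5, 9.28, 9.56, 14.2 and 7.32 CPM in the IFN-γ libraries and at 15.01, 26.8, 23.1, 16.7 and 19.6 CPM in the untreated libraries. It fell with IFN-γ (-0.98 ± 0.20, adjusted p = 0.0129), was not called with Tg (0.08 ± 0.19, adjusted p = 0.793), and differed by 1.06 ± 0.20, adjusted p = 0.00143 between Tg and IFN-γ. The inhibitors of differentiation Id1 (1.91 ± 0.18, adjusted p = 2.54e-08) and Id3 (1.43 ± 0.10, adjusted p = 7.28e-08) and the Notch target Hes1 (1.60 ± 0.17, adjusted p = 3.76e-07) were higher with Tg. Sox11, a factor of immature neurons and progenitors, was lower (-0.67 ± 0.07, adjusted p = 6.79e-07). Olig1 (0.465) and Olig2 (0.0798) were not called, by adjusted p. In the astrocyte list, 2 of 9 members were higher and 1 lower with Tg, near the 17.8% and 15.7% of all genes. The summed level of this list was 350 to 393 CPM with Tg, 376 to 439 CPM with IFN-γ and 405 to 438 CPM untreated; the part of other cells in these results was not tested.

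Progenitor and myelin genes differed little after 1 h. Of 12 progenitor markers, 2 were higher and 1 lower with Tg, shares no larger than the 17.8% and 15.7% of all genes. Gpr17, a receptor of committed progenitors, was higher (0.51 ± 0.05, adjusted p = 6.08e-08), as was the proteoglycan gene Cspg4, which encodes NG2 (0.50 ± 0.09, adjusted p = 0.000958). Against untreated, Gpr17 rose with Tg (0.32 ± 0.05, adjusted p = 3.44e-05) and fell with IFN-γ (-0.18 ± 0.05, adjusted p = 0.0314). Pdgfra (0.02 ± 0.10, adjusted p = 0.887) and Mbp (-0.06 ± 0.11, adjusted p = 0.702) were not called. Of 15 myelin genes, 3 were lower with Tg, namely Opalin, Ugt8a and Tspan2, at -0.34, -0.17 and -0.13 on the log2 scale. The share is near the 15.7% of all genes called lower, and each of these calls was lost in 5 to 7 of the 15 fits that left out a library, with Ugt8a at -0.11 without the wild-type Tg library 1.

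Among the genes that fell with Tg alone, most changes were small. NRF2 targets included 6 of 15 that were lower with Tg and 1 that was higher, beside 15.7% and 17.8% of all genes. Their median was -0.17. Prdx1 differed by -0.41 ± 0.05, adjusted p = 3.27e-07, Gclm by -0.28 ± 0.05, adjusted p = 9.83e-05 and Gsr by -0.21 ± 0.04, adjusted p = 0.000362, all genes of thiol and glutathione defence. The member that was higher was Nfe2l2 itself (0.54 ± 0.18, adjusted p = 0.0275), whose call was lost in 1 of the 15 fits that left out a library. It was called in the Nrf2 -/- cells, where 0.103 to 0.668 CPM remained (1.85, adjusted p = 0.00066), and not in the wild-type cells, which have the gene (0.27, adjusted p = 0.26); the difference between the genotypes was not called (adjusted p = 0.975). The classical NRF2 targets Nqo1 (0.865) and Hmox1 (0.0778) were not called, by adjusted p. Aldoc, a glycolytic enzyme gene, was lower with Tg (-0.32 ± 0.04, adjusted p = 4.53e-06). Lower too was Cd68, a lysosomal protein gene used as a macrophage marker, at 3.28 ± 0.747 CPM with Tg, 6.49 ± 1.08 CPM with IFN-γ and 7.09 ± 0.912 CPM untreated (SD, n = 5 each; -0.98 ± 0.13, adjusted p = 2.49e-06). Of 18 cell cycle genes 3 were lower, among them Ccne2 (-0.33 ± 0.07, adjusted p = 0.000479) and Pcna (-0.21 ± 0.05, adjusted p = 0.0029), beside 15.7% of all genes. The third, Ccnd1 (-0.28 ± 0.09, adjusted p = 0.029), lost its call in 4 of the 15 fits that left out a library and moved to -0.18 without the wild-type IFN-γ library 1. Mitochondrially encoded transcripts summed to 7089 to 8691 CPM with Tg, 7982 to 8611 CPM with IFN-γ and 8556 to 9368 CPM untreated, with mt-Co1 as the only member of 12 called (-0.16 ± 0.05, adjusted p = 0.00953). The genes specific to Tg also differed in the length of their main transcript, with medians of 3434 bases for those that rose, 2118 bases for those that fell and 2818 bases over all tested genes; its part in the small changes was not tested.

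Cell death genes listed as p53 targets or caspases had 10 of 20 members lower and 5 higher with Tg, beside 15.7% and 17.8% of all genes. Their median was -0.13. The lower ones with the largest differences rose with IFN-γ: Casp12 (1.68 ± 0.40, adjusted p = 0.011) and Casp4 (1.33 ± 0.21, adjusted p = 0.000128), inflammatory or ER-associated caspases, and Fas, a death receptor (1.56 ± 0.27, adjusted p = 0.000782), all below 4 CPM in every library. Of 11 cytosolic heat shock genes 3 were higher and 1 lower with Tg, beside 17.8% and 15.7% of all genes. Hsf1 differed by 0.38 ± 0.06, adjusted p = 1.49e-05, and Hsp90aa1 by -0.19 ± 0.03, adjusted p = 0.000199. Of 8 tested markers of neurons, 1 was higher with Tg, 1 was lower and 6 were not called, beside 17.8% higher and 15.7% lower of all genes. Gad1 was higher with Tg at a low level, with 1.14, 0.578, 1.86, 2.32 and 0.862 CPM over the Tg libraries and at most 0.4 CPM elsewhere (2.66 ± 0.39, adjusted p = 2.13e-05). Tubb3 was lower (-0.35 ± 0.07, adjusted p = 0.000427). Of 5 tested markers of vessels and fibroblasts, 2 were lower with Tg and 3 were not called, beside 15.7% lower of all genes. The lower ones were Acta2 (-3.79 ± 0.51, adjusted p = 4.71e-06) and Lum (-3.003 ± 0.51, adjusted p = 8.48e-05), both below 1 CPM in every library. The summed level of that list was 3.60 to 6.24 CPM with Tg, 3.90 to 6.56 CPM with IFN-γ and 3.31 to 5.10 CPM untreated.

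The direct comparison was asked separately in each genotype, to see whether loss of NRF2 changed how the stimuli differ. High Xist was seen in Nrf2 -/- libraries alone, so genotype and the sex of the cells are partly confounded here and cannot be fully told apart. No gene was called for a genotype difference between Tg and IFN-γ by edgeR's quasi-likelihood test or by DESeq2; 691 genes (4.49%) had an unadjusted p below 0.05, and 68 were called when genes of low count were kept. For each stimulus against untreated, 12 genes (0.078%) were called with Tg and 1 (0.0065%) with IFN-γ, each with a lower log2 change in Nrf2 -/- than in wild-type cells. They included Polr2a, the largest subunit of RNA polymerase II (-0.66 ± 0.11, adjusted p = 0.0167), and Ncoa6, a nuclear receptor coactivator (-0.84 ± 0.13, adjusted p = 0.0167). Others were the acetyltransferase gene Ep300 (-0.52 ± 0.10, adjusted p = 0.043) and Tnr, tenascin-R of oligodendrocytes (-0.56 ± 0.08, adjusted p = 0.0167). Trrap, a scaffold of acetyltransferase complexes, was called with both stimuli (-0.54 ± 0.08 with each; adjusted p = 0.0167 with Tg and 0.0374 with IFN-γ). The same untreated libraries enter both differences. The count of 12 ran between 0 and 40 when single libraries were left out and was 35 with DESeq2, and the count of 1 ran between 0 and 18 and was 31 with DESeq2, so neither holds over the fits tried.

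The same comparison was available after 8 h in 10 further libraries. Of these, 1 Tg and 1 IFN-γ library carry conflicting genotype labels, as does 1 untreated library of that hour; they were used as Nrf2 -/-, and Nfe2l2 stood at 0.688 CPM in the Tg library and 0.227 CPM in the IFN-γ library. After 8 h, 11213 of 15981 genes (70.2%) were called between Tg and IFN-γ, and for 9452 genes (59.1%) the difference itself changed between the hours, toward higher values with Tg for 28.3% and lower values for 30.8%; without the 3 libraries of conflicting label the count was 9160. Of the 118 genes more than 2-fold higher with Tg after 1 h, 66 were still called higher after 8 h, 17 were called lower and 35 were not called, and their median log2 difference was 0.86 after 8 h, against 1.44 after 1 h. Of the 240 more than 2-fold lower, 172 were called lower after 8 h, 15 higher and 53 not, and their median was -3.01 after 8 h, against -1.66 after 1 h. These genes were chosen by their 1 h values. Differences of 2 leading immediate early genes were not called after 8 h: Nr4a1 averaged 7.53 ± 0.968 CPM with Tg and 8.44 ± 0.931 CPM with IFN-γ (SD, n = 5 each) and was not called (adjusted p = 0.052). Egr1 averaged 1.86 ± 0.194 CPM with Tg and 3.19 ± 0.698 CPM with IFN-γ and was not called (adjusted p = 0.0642). Other immediate early genes varied after 8 h. Still higher with Tg were Ier2 (1.53, adjusted p = 3.55e-11), Atf3 (3.26, adjusted p = 1.26e-16) and, by a small amount, Fos (0.25, adjusted p = 0.0161). Egr3 was not called (adjusted p = 0.28), and Egr2 was lower, as given below. Stress genes had moved further apart, with Ddit3 at 469.7 ± 35.1 CPM with Tg and 8.91 ± 0.6304 CPM with IFN-γ, a difference between the hours of 2.499 ± 0.13 (adjusted p = 1.15e-14). Chac1 averaged 203 ± 13.8 CPM with Tg and 2.32 ± 0.339 CPM with IFN-γ and Hspa5 9041 ± 655 CPM with Tg and 722 ± 26.1 CPM with IFN-γ, with adjusted p-values for the difference between the hours of 4.18e-11 for Chac1 and 8.73e-23 for Hspa5. Igtp had moved further apart as well, at 0.0644 ± 0.0623 CPM with Tg and 2056 ± 61.2 CPM with IFN-γ (adjusted p = 0.000706 for the difference between the hours). Gbp2 averaged 0.238 ± 0.3097 CPM with Tg and 7566 ± 267 CPM with IFN-γ, but its difference between the hours was not called and had no usable standard error, with Tg libraries near 0 at both hours. Egr2, not called between the stimuli after 1 h, averaged 0.622 ± 0.309 CPM with Tg and 28.4 ± 2.33 CPM with IFN-γ after 8 h (-5.61, adjusted p = 2.45e-15).

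Signs were opposite at the 2 hours for 980 of the 3488 genes called at both. Trib3, lower with Tg after 1 h, averaged 435 ± 39.2 CPM with Tg and 3.04 ± 0.736 CPM with IFN-γ after 8 h, and the difference between the hours was 7.85 ± 0.30 (adjusted p = 3.41e-15). Tnfaip3, higher with Tg after 1 h, averaged 0.835 ± 0.151 CPM with Tg and 18.8 ± 2.29 CPM with IFN-γ after 8 h, with a difference between the hours of -5.47 ± 0.19 (adjusted p = 1.37e-19). Nptx1, a secreted pentraxin of synapses, and Aunip, a partner of Aurora A kinase, also reversed, with differences between the hours of -4.42 and -4.02. Cyb5r2 and Slco4a1 reversed too, but their 1 h calls did not hold when single libraries were left out: the log2 difference of Slco4a1 was 0.57 with all libraries and 0.33 without the wild-type Tg library 1, its call was lost in 10 of the 15 fits, and Cyb5r2 lost its call in 6 of the 15 fits that left out a library.

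**Figure D5:**
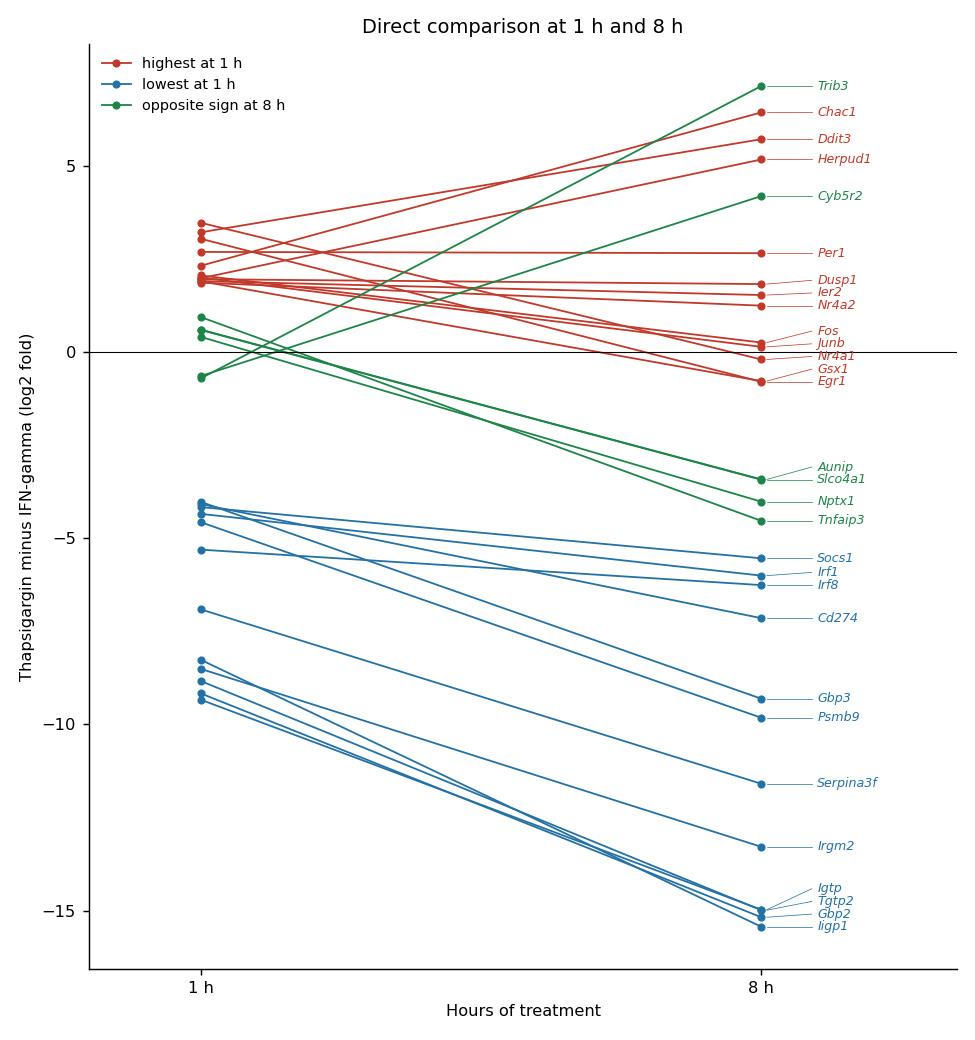
Log2 difference between thapsigargin and IFN-γ after 1 h and 8 h for the 12 genes highest with thapsigargin after 1 h (red), the 12 lowest (blue) and 6 that changed sign (green), from a fit of the 30 libraries of both hours. The interferon genes run further down to 8 h, Ddit3, Chac1 and Herpud1 run up, and Nr4a1, Fos and Junb lie near 0 after 8 h. Where a level is near 0, as for interferon genes with thapsigargin, the plotted fold depends on the small count added in the fit.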

How the data were processed

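RNA-seq libraries, 15 at 1 h and 30 over 1 h and 8 h, were taken from the whole-series tables. The authors deposited raw read counts per gene and estimated counts per transcript; the submitters' processing notes name STAR, featureCounts and kallisto without versions, with build, annotation and strand setting not given in the sources used here. Without a strand setting, reads of overlapping and antisense genes cannot be told apart, and near-identical copies may share reads. Counts were fitted in R 4.3.3 with edgeR 4.0.16 (quasi-likelihood test, TMM scaling, robust) with treatment and genotype as terms, after filterByExpr (minimum count 10), and p-values were adjusted by Benjamini-Hochberg over all 15375 genes tested. Genotype differences used 6 group means, and hour differences used 12 group means over 30 libraries (15981 genes). CPM, counts scaled to library size, were computed from the deposited counts. Promoters came from the RefSeq table for up to 2 genes a class, with Irf1 and Herpud1 added. Estimated counts were used for Xbp1 and, summed per gene and rounded, as an alternative. Symbols were matched for 38872 of 39056 genes. Genes were named by size of difference among called genes without overlap between groups and at least 5 CPM in the higher group (12 each way for the direct comparison; 10, 6 and 8 for genes moved by both), plus up to 4 members per list, up to 6 genes of hour or genotype differences, and a set always named; predicted genes were counted, not named, and a few genes within the rule are not reported here. Genes named outside this rule (Irf and Sox factors, receptor genes, Rel, Relb, Asns, Cebpd, Socs2, B2m, H2-K1, H2-D1, Nqo1, Hmox1, Olig1, Olig2, Sox10, Sox11 and the genes of the genotype differences among them) were chosen with their values known. Members and lists were chosen with earlier results of these data known. Alternatives were DESeq2 1.42.0, other scalings, filters and fits, kallisto counts, single genotypes and leaving out each library; limma 3.58.1 came with edgeR. Intervals cover counting error only. The fits were tested on simulated data.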

Additional observations from a re-analysis of the deposited data

Results flagged for a closer look

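A single library stood apart from the other 4 of its treatment for 26 of the 366 gene and treatment groups examined (7.1%). The measure is the gap to the nearest library divided by the range of the 5, which had to exceed 0.71. That limit marks about 1 in 20 groups of 5 independent normal values. These levels mix both genotypes, come from genes chosen by their values and in part rest on few reads. The 7.1% therefore cannot be set against 1 in 20. Among the Tg libraries the measure was 0.848 for Casp12 (Nrf2 -/- library 3), 0.752 for Cd68 (Nrf2 -/- library 1), 0.863 for Cspg4 (wild-type library 2), 0.722 for Dtx3l (Nrf2 -/- library 1), 0.744 for Egr1 (wild-type library 1), 0.736 for Hsp90aa1 (wild-type library 1), 0.727 for Irgm2 (Nrf2 -/- library 3), 0.836 for Sik1 (wild-type library 2) and 0.809 for Zfp36l2 (Nrf2 -/- library 3). Among the IFN-γ libraries it was 0.748 for Atf3 (wild-type library 2), 0.826 for Hes1 (wild-type library 2), 0.713 for Hsf1 (wild-type library 2), 0.883 for Per1 (wild-type library 2) and 0.758 for Zfp36l2 (wild-type library 1). Among the untreated libraries it was 0.718 for Casp4 (Nrf2 -/- library 1), 0.878 for Cd68 (Nrf2 -/- library 2), 0.715 for Chac1 (wild-type library 2), 0.716 for Derl3 (Nrf2 -/- library 1), 0.782 for Dusp1 (Nrf2 -/- library 1), 0.763 for Egr4 (wild-type library 2), 0.738 for Fgfr3 (Nrf2 -/- library 2), 0.775 for Icam1 (Nrf2 -/- library 3), 0.806 for mt-Co1 (wild-type library 1), 0.78 for Oasl2 (wild-type library 1), 1 for Tgtp2 (Nrf2 -/- library 3) and 0.772 for Tubb3 (wild-type library 2). Both genotypes enter each group of 5.

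The difference between Tg and IFN-γ itself differed between 8 h and 1 h for 9452 genes. It changed sign with the largest steps for Trib3 at 7.85, Tnfaip3 at -5.47, Cyb5r2 at 4.83, Nptx1 at -4.42, Aunip at -4.02 and Slco4a1 at -4.02, given as the 8 h minus the 1 h log2 difference. The response to Tg differed between Nrf2 -/- and wild-type cells for 12 genes and the response to IFN-γ for 1 gene, by edgeR's quasi-likelihood test. Neither count held when single libraries were left out, where they ran from 0 to 40 with Tg and from 0 to 18 with IFN-γ. Both share the untreated libraries, and genotype is partly confounded with the sex of the cells.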

How the results depend on the processing

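No result reversed under the alternatives run. Counting only changes of at least 2-fold left 83 genes specific to Tg, 122 specific to IFN-γ and 20 moved by both. In comparisons of Nrf2 -/- libraries only, within the fit of all 15 libraries, 3397 genes were called between Tg and IFN-γ. Against untreated, 2333 were called with Tg and 441 with IFN-γ, with 1705 specific to Tg and 137 moved by both. In comparisons of wild-type libraries only, within the same fit, the counts were 2888, 2709 and 451, with 1655 specific to Tg, 251 specific to IFN-γ and 151 moved by both. Without a filter on low counts 490 genes were moved by both and 68 were called for a genotype difference between the stimuli; the cause was not tested. Leaving out each library in turn gave 4531 to 5196 genes between Tg and IFN-γ, 3748 to 4579 with Tg, 581 to 761 with IFN-γ, 2863 to 3339 specific to Tg, 303 to 401 specific to IFN-γ, 223 to 301 moved by both, and 9050 to 9529 that differed between the hours. DESeq2 called 5272 genes between the stimuli, transcript-based counts 5301, and a term for high Xist, added after seeing the data, 5248. Of 176 named results, 139 kept their call, and where called their direction, under every alternative in which they were fitted. With the filter of at least 1 CPM in 5 libraries, 166 of the 176 were fitted. No paired analysis was possible from the labels alone because the labels give no replicate numbers that tie libraries of different treatments to each other. Levels of sex-linked genes ran in parallel across treatments by the replicate numbers used here. Xist stood at 0.374, 0.431 and 0.537 CPM (untreated, Tg, IFN-γ) in wild-type replicate 2 and 3.98, 2.995 and 5.12 CPM in replicate 1. Ddx3y stood at 0.0886, 0.112 and 0.0278 CPM in Nrf2 -/- replicate 1 and 1.48, 1.07 and 1.24 CPM in replicate 3, in that order. Whether libraries of the same number came from 1 culture was not tested, and no fit paired them. Genes below 1 CPM rest on few reads.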
